A study of Mus musculus with 6 samples.

Results

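Keratins 4, 5, 6A, 6B, 13, 14, 15, 16 and 17 are the intermediate filament proteins of basal and stratified epithelia, and their mRNAs were followed in CFPAC-1 cells after transfection with a siRNA against KRT7. The 9 genes were chosen by identifier from the 30543 genes in the deposited table. No value enters that rule, but the list was drawn up with earlier results of these data known. CFPAC-1 is a human pancreatic adenocarcinoma (PAAD) line of ductal origin. The si-KRT7 group (3 libraries) received a siRNA against KRT7 and the si-Control group (3 libraries) a control siRNA, and the groups share the line and carry no other agent in the labels. Neither the time after transfection nor the KRT7 duplex of these libraries is stated, and all libraries come from 1 cell line. The labels do not say whether the replicates were separate cultures, so the p-values measure the spread between these libraries, which may be technical.

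Poly(A) RNA was sequenced on the DNBSEQ platform, with 28208896 to 36315802 counts per library, and 15736 genes passed the filter on low counts, all 9 keratins among them. The labels give the mouse as the organism, whereas the line is human and all identifiers are human. Neither the table nor the name tables used here pair KRT7 or the markers of the ductal cell with an identifier. These genes were therefore not looked up by name, and the knockdown of KRT7 was not checked in these libraries. The called gene with the largest decrease and at least 50 counts per library on average, ENSG00000135480, kept 12.2%, 18.3% and 12.6% of its mean si-Control level in si-KRT7 replicates 1, 2 and 3. It was picked by that decrease and has no name here, so it is given as a description only. Over all genes si-KRT7 replicate 2 stood apart from the other si-KRT7 libraries: the mean chi-square per gene was 5.70 between replicates 1 and 3, and 79.6 and 61.6 between replicate 2 and each of them. Against the si-Control libraries it was 33.0 to 44.6 for si-KRT7 replicate 2, 47.8 to 59.1 for replicate 1 and 40.5 to 48.8 for replicate 3. This value grows with the number of counts, which was lowest in si-KRT7 replicate 2. Since replicate 2 stood apart, the fold change of each keratin is given with and without it. Leaving it out removes the si-KRT7 library that differs most from the other si-KRT7 libraries. The common biological coefficient of variation in edgeR, the spread between libraries of a group, was 0.130 with all 6 libraries and 0.048 without replicate 2. Intervals and p-values of the fit without it reflect that reduced spread and are given as a description.

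Keratin filaments are built from pairs of a type II and a type I chain, and epithelia differ in the pair they make. Basal cells of stratified epithelia make KRT5 with KRT14, and often KRT15. Cells above the basal layer in moist mucosae make KRT4 with KRT13. KRT6A, KRT6B, KRT16 and KRT17 are known from wounded, proliferating and appendage epithelium, and KRT17 and KRT5 are also known from basal-like pancreatic tumors. Pancreatic ducts mainly use the simple-epithelial chains KRT7, KRT8, KRT18 and KRT19.

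In si-KRT7 cells the KRT6A mRNA was lower in every library and fell by 37.6% in the fit, and it was the only one of the 9 keratins called with all 6 libraries. KRT5 and KRT16 were lower in every si-KRT7 library as well, but missed the adjusted limit. KRT17, KRT13 and KRT14 were lower than all si-Control libraries in si-KRT7 replicates 1 and 3, whereas replicate 2 lay near or above the si-Control mean. For KRT17 replicate 2 still lay just below the lowest si-Control library, so its groups did not overlap either. No keratin was called higher, and KRT4, KRT15 and KRT6B overlapped between the groups. A gene was called with an adjusted p under 0.05 in edgeR's quasi-likelihood test, and a second limit asked for an absolute log2 fold change over 1, which none of the 9 passed. The call of 1 of 9 keratins stands beside 2.07% of all genes tested, 1.35% called lower and 0.712% called higher, and 0.292% of all genes passed both limits. The groups did not overlap in 4 of 9 keratins, all lower in si-KRT7 cells, beside 24.4% of all genes in either direction and 13% of all genes lower. Leaving replicate 2 aside, 6 of 9 keratins lay below all si-Control libraries in both remaining si-KRT7 libraries, beside 31.2% of all genes and 69.3% of the 257 most abundant genes described further on. The median log2 fold change was -0.36 over the 9 keratins and 0.011 over all genes tested, and -0.45 and -0.0094 without replicate 2.

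**Figure D1:**
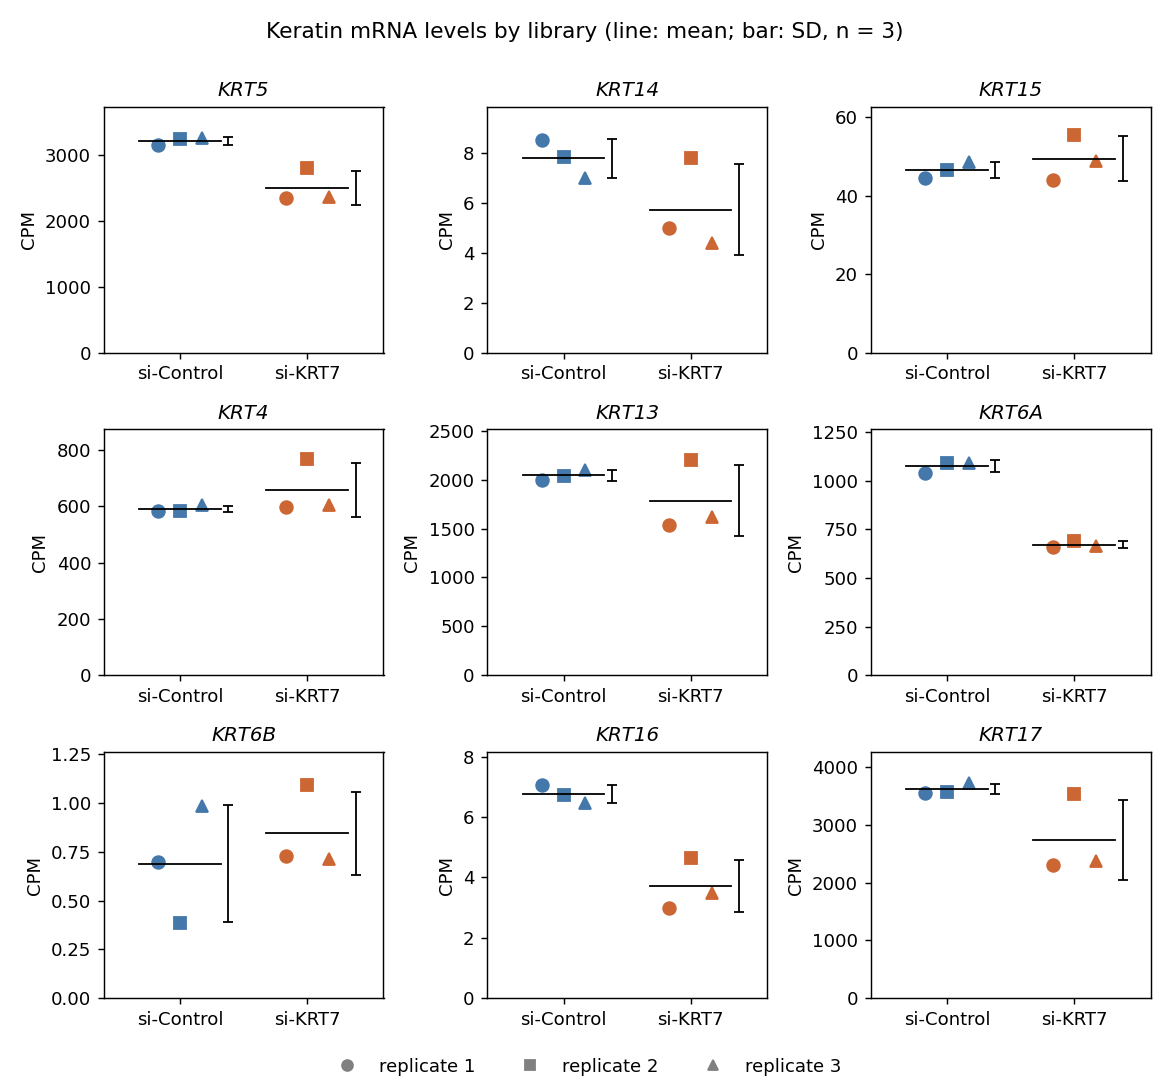
Counts scaled to library size (CPM, vertical axes from 0) of each keratin in the si-Control and si-KRT7 libraries, with a symbol per replicate, a line at the group mean and a bar for the SD (n = 3). The si-KRT7 values of KRT6A lay together between 659 and 690.5 CPM, while for KRT17 and KRT13 replicate 2 lay far above replicates 1 and 3.

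Levels are given as CPM, counts relative to library size after TMM scaling, on a linear scale. They are not corrected for transcript length, so they are compared between libraries and not between genes. In such bulk libraries fewer cells that express a keratin and less of its RNA per cell cannot be told apart.

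KRT5 (ENSG00000186081), the type II chain of the basal layer, had 3148, 3245 and 3261 CPM in si-Control replicates 1, 2 and 3, and 2344, 2801 and 2369 CPM in si-KRT7 replicates 1, 2 and 3. All si-KRT7 libraries lay below all si-Control libraries, replicate 2 by the least. The group means were 3218 ± 61.0 and 2504 ± 257 CPM (SD, n = 3), and the log2 fold change was -0.36 (standard error 0.082, 95% interval -0.55 to -0.17). Its adjusted p was 0.0672 in edgeR's quasi-likelihood test, over the limit. Without si-KRT7 replicate 2 it was called at -0.45 on the log2 scale (95% interval -0.51 to -0.40, adjusted p = 3.3e-12 in edgeR). Without si-KRT7 replicate 1 or 3 it was -0.32 and -0.32 and not called (adjusted p = 0.199 and 0.238 in edgeR).

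KRT14 (ENSG00000186847), the type I partner of KRT5, was counted only 135 to 295 times per library. It stood at 8.55, 7.85 and 6.99 CPM in si-Control replicates 1, 2 and 3, and at 5.01, 7.82 and 4.38 CPM in those of si-KRT7. Replicate 2 lay within the si-Control range and the other si-KRT7 libraries below it. The log2 fold change was -0.45 with an interval that spans 0 (95% interval -0.94 to 0.044, adjusted p = 0.312 in edgeR). Without si-KRT7 replicate 2 it was called lower at -0.73 on the log2 scale (adjusted p = 2.5e-04 in edgeR), and without replicate 1 or 3 it was -0.36 and -0.29 and not called.

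KRT15 (ENSG00000171346), a type I chain of basal cells and hair follicle stem cells, had 44.6, 46.7 and 48.5 CPM in si-Control replicates 1, 2 and 3, and 44.1, 55.4 and 48.8 CPM in those of si-KRT7. The groups overlapped and replicate 2 was the highest of all 6 libraries. The log2 fold change was 0.085 (95% interval -0.15 to 0.32, adjusted p = 0.710 in edgeR), and -0.0081 (95% interval -0.14 to 0.12) without replicate 2. Among the basal keratins KRT5 was thus lower in every si-KRT7 library, while the groups overlapped for KRT15. Their ratio within a library, given below, restates this contrast from the same counts.

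KRT4 (ENSG00000170477), the type II chain of the mucosal pair, had 583, 583 and 604 CPM in si-Control replicates 1, 2 and 3, and 597, 769 and 606 CPM in those of si-KRT7. Replicate 2 of si-KRT7 reached 130.3% of the si-Control mean, and the other si-KRT7 libraries 101% and 103%. The log2 fold change was 0.16 (95% interval -0.081 to 0.39, adjusted p = 0.468 in edgeR) and 0.025 (95% interval -0.039 to 0.088) without replicate 2.

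KRT13 (ENSG00000171401), the type I partner of KRT4, had 1992, 2039 and 2101 CPM in si-Control replicates 1, 2 and 3, and 1534, 2205 and 1620.2 CPM in those of si-KRT7. Replicates 1 and 3 lay below all si-Control libraries, at 75.1% and 79.3% of the si-Control mean, and replicate 2 above all of them, at 107.9%. The log2 fold change was -0.19 (95% interval -0.49 to 0.10, adjusted p = 0.468 in edgeR). Without replicate 2 KRT13 was called, with a log2 fold change of -0.38 (95% interval -0.44 to -0.31, adjusted p = 7.3e-10 in edgeR). Without si-KRT7 replicate 1 or 3 it was -0.098 and -0.13 (adjusted p = 0.805 and 0.788 in edgeR).

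KRT6A (ENSG00000205420), a type II chain that is induced in wounded epidermis, had 1039, 1092 and 1092 CPM in si-Control replicates 1, 2 and 3, and 659, 690.5 and 664 CPM in those of si-KRT7. Relative to the si-Control mean the si-KRT7 libraries held 61.3%, 64.3% and 61.8%, and replicate 2 lay close to replicates 1 and 3. The group means were 1074 ± 30.8 and 671 ± 17.1 CPM (SD, n = 3), and the log2 fold change was -0.68 (standard error 0.064, 95% interval -0.83 to -0.53, adjusted p = 0.00435 in edgeR's quasi-likelihood test). Without si-KRT7 replicate 2 it was -0.70 (95% interval -0.77 to -0.64, adjusted p = 5.8e-14 in edgeR). By exact permutation of the libraries (two-sided) the p was 0.1 for KRT6A, KRT5, KRT16 and KRT17, and with 3 libraries in each group it cannot be smaller. The call did not hold in the 3 fits that each left out a si-Control library, where the log2 fold change was -0.70, -0.67 and -0.67 without si-Control replicates 1, 2 and 3 and the adjusted p was between 0.0685 and 0.0782 in edgeR, with 0.0372% to 0.0616% of all genes called.

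KRT6B (ENSG00000185479), a close relative of KRT6A, was near the limit of detection with 14 to 31 counts per library. It had 0.695, 0.387 and 0.985 CPM in si-Control replicates 1, 2 and 3, and 0.727, 1.09 and 0.714 CPM in those of si-KRT7. The log2 fold change of 0.29 had a 95% interval from -0.62 to 1.20 (adjusted p = 0.746 in edgeR), and differences between these bounds were not detectable at this depth. Without si-KRT7 replicate 2 it was 0.072 (95% interval -0.86 to 1.01). Exact Poisson intervals of single libraries, which cover counting error only, ran from 0.211 to 0.649 CPM in the lowest and from 0.736 to 1.56 CPM in the highest.

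KRT16 (ENSG00000186832), the type I partner of KRT6 chains, was counted 107 to 244 times per library. It had 7.07, 6.74 and 6.48 CPM in si-Control replicates 1, 2 and 3, and 2.99, 4.65 and 3.47 CPM in those of si-KRT7. All si-KRT7 libraries lay below all si-Control libraries, at 44.2%, 68.8% and 51.3% of the si-Control mean. The log2 fold change of -0.88 was the largest in size among the 9 keratins (standard error 0.18, 95% interval -1.29 to -0.47), and its adjusted p of 0.0504 in edgeR lay just over the limit. Without si-KRT7 replicate 2 it was called at -1.07 on the log2 scale (edgeR, adjusted p = 6.3e-06), the only keratin past both limits in that fit. Without si-KRT7 replicate 1 or 3 it was -0.74 and -0.84 and not called (adjusted p = 0.146 and 0.190 in edgeR).

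KRT17 (ENSG00000128422), a type I chain of appendage epithelium and of many carcinomas, had 3557, 3572 and 3719.6 CPM in si-Control replicates 1, 2 and 3, and 2296, 3533 and 2382 CPM in those of si-KRT7. Replicates 1 and 3 held 63.5% and 65.9% of the si-Control mean, whereas replicate 2, at 97.7%, lay just below the lowest si-Control library. The group means were 3616 ± 90.04 and 2737 ± 691 CPM (SD, n = 3), and the log2 fold change was -0.40 (95% interval -0.75 to -0.054, adjusted p = 0.210 in edgeR). Without replicate 2 it was -0.63 (95% interval -0.69 to -0.57, adjusted p = 4.5e-14 in edgeR), and without replicate 1 or 3 it was -0.29 and -0.31 and not called.

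**Figure D2:**
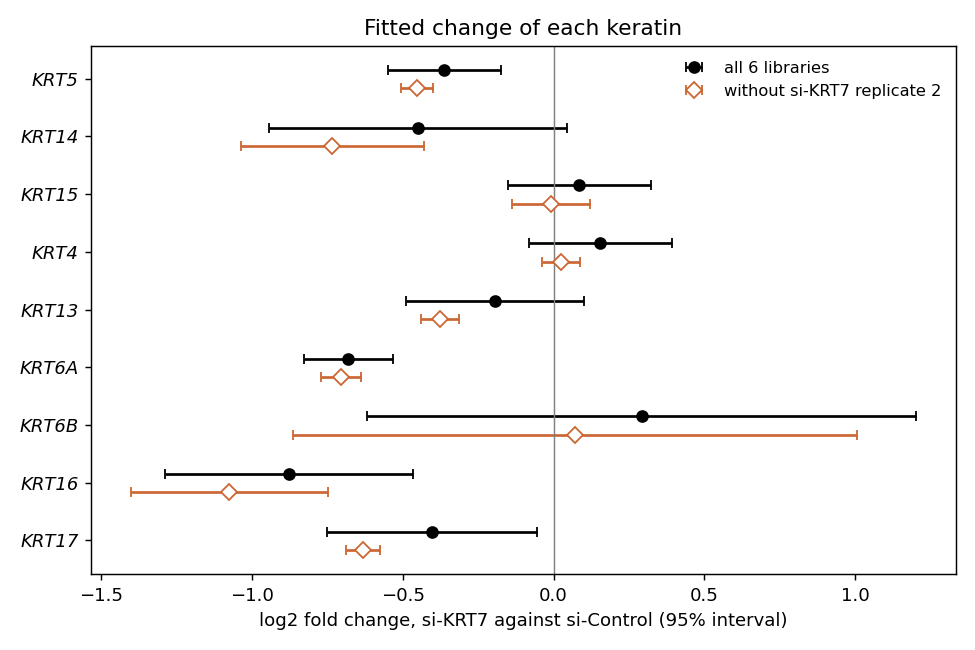
Log2 fold change of each keratin in si-KRT7 against si-Control cells (horizontal axis, 95% intervals) in the fit of all 6 libraries (filled circles) and without si-KRT7 replicate 2 (open diamonds). The values of KRT6A are nearly the same in both fits (-0.68 and -0.70), while those of KRT17 are -0.40 and -0.63.

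Without si-KRT7 replicate 2, 6 of 9 keratins were called, all lower (KRT5, KRT6A, KRT13, KRT14, KRT16 and KRT17). In that fit 42.9% of all genes tested were called, 22% lower and 20.9% higher, and 2.2% passed both limits, so many genes besides the keratins pass when this library is left out. KRT4, KRT15 and KRT6B were not called there either.

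Replicate 2 had the highest level of the 3 si-KRT7 libraries for all 9 keratins. It was the highest for 44.0% of all genes tested, but for 71.6% of the 257 genes with a mean of at least 500 CPM, an abundance class set after seeing the data that holds KRT4, KRT5, KRT6A, KRT13 and KRT17. The median log2 ratio of these 257 genes to the si-Control mean was -0.17, 0.060 and -0.15 in si-KRT7 replicates 1, 2 and 3, and between -0.013 and 0.028 in the si-Control libraries. Over all genes tested it lay between -0.011 and 0.0037 in the si-KRT7 libraries. Abundant genes as a class were thus lower in replicates 1 and 3 and higher in replicate 2, and the share of this shift in the keratin values was not tested beyond the comparisons that follow.

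KRT6A and KRT17 lay at the lower end of this abundant class. Of the 257 genes, 2 had a lower log2 fold change than KRT6A, 8 a lower one than KRT17 and 14 a lower one than KRT5. KRT13 had 54 genes below it, and KRT4 stood near the upper end with 26 genes above it. When si-KRT7 replicate 2 was left out, 4 genes lay below KRT6A, 6 below KRT17, 19 below KRT5 and 32 below KRT13, and 58 lay above KRT4. Among the 257 genes 5.06% were called and the groups did not overlap in 36.2%. With cyclic loess, a scaling that removes trends with abundance and was added after seeing the data, limma-voom called 3 of 9 keratins, beside 2% of all genes: KRT6A at -0.61 on the log2 scale (adjusted p = 0.00497), KRT5 at -0.27 (adjusted p = 0.0454) and KRT16 at -0.92 (adjusted p = 0.0342). With TMM scaling limma-voom called 2 of 9, KRT6A and KRT16, beside 1.96% of all genes. With cyclic loess and without si-KRT7 replicate 2, 7 of 9 keratins were called beside 42.3% of all genes. The log2 fold changes were then -0.29 for KRT5, -0.61 for KRT6A, -0.47 for KRT17 and -0.24 for KRT13. The value of KRT5 was smaller in size than the -0.45 of the edgeR fit without that library. These fits differ in both the scaling and the test, and the share of each was not tested. KRT4 was called higher at 0.097 (adjusted p = 0.0024 in limma-voom) with cyclic loess and without that library.

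**Figure D3:**
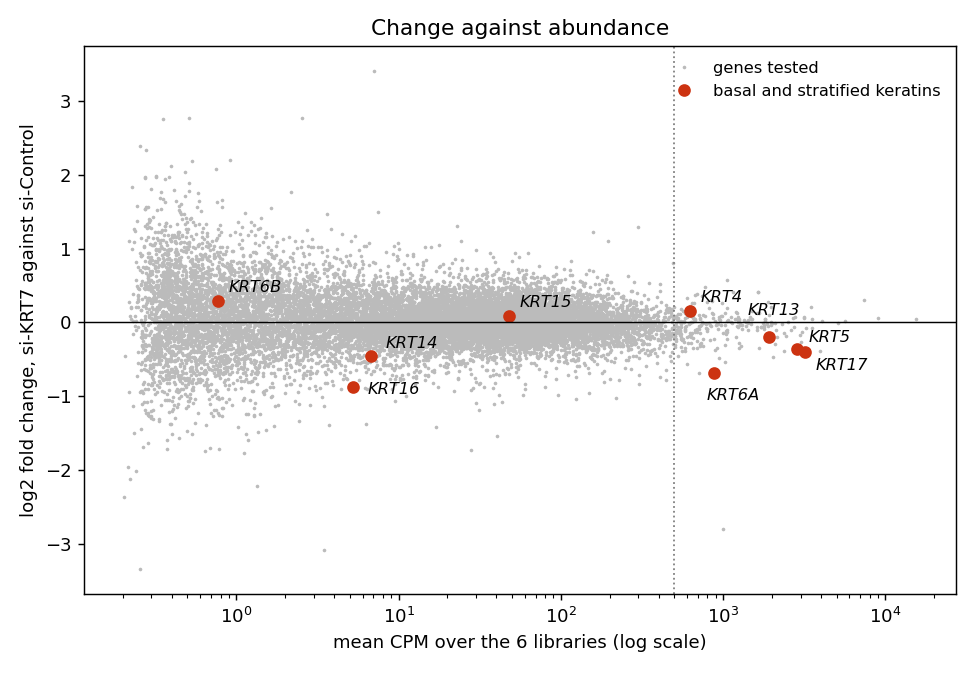
Log2 fold change in si-KRT7 against si-Control cells (vertical axis) against mean CPM over the 6 libraries (horizontal axis, log scale) for the genes tested (grey) and the 9 keratins (red), with a dotted line at 500 CPM. KRT6A, at -0.68, lies below nearly all genes to the right of the line, and KRT4, at 0.16, lies above most of them.

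Ratios of counts within a library do not change when each library is scaled by a single factor, as with TMM. They were computed for 10 pairs of partners or similar chains as a description. Shifts that depend on abundance, which cyclic loess removes, can still move ratios between genes of unlike abundance, and their share in these ratios was not tested. The log2 ratio of KRT5 to KRT15 was 6.14, 6.12 and 6.07 in si-Control replicates 1, 2 and 3, and 5.73, 5.66 and 5.60 in those of si-KRT7. The ratio was lower in every si-KRT7 library, replicate 2 included. The log2 ratio of KRT5 to its partner KRT14 overlapped between the groups, with means of 8.69 ± 0.17 and 8.81 ± 0.30 (SD, n = 3).

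For the mucosal pair, the log2 ratio of KRT4 to KRT13 was -1.77, -1.81 and -1.80 in si-Control replicates 1, 2 and 3, and -1.36, -1.52 and -1.42 in those of si-KRT7. The type II chain thus stood higher against its type I partner in every si-KRT7 library, by 0.36 on average, while neither gene was called on its own with all 6 libraries. No test was made on the ratios.

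Among the wound-associated chains, the log2 ratio of KRT6A to KRT17 was -1.78, -1.71 and -1.77 in si-Control replicates 1, 2 and 3, and -1.80, -2.36 and -1.84 in those of si-KRT7. Replicates 1 and 3 lay close to si-Control, where both genes were lower by like amounts, and replicate 2 stood far below. The log2 ratio of KRT16 to KRT17 was -8.97, -9.05 and -9.16 in the si-Control libraries, and -9.59, -9.57 and -9.42 in the si-KRT7 libraries, lower in each of them. The log2 ratio of KRT14 to KRT17 overlapped between the groups (-8.86 ± 0.18 and -8.92 ± 0.15, SD, n = 3), as did that of KRT6A to KRT16 (7.31 ± 0.10 and 7.52 ± 0.29, SD, n = 3). The 3 ratios with KRT6B rest on its few counts and had an SD of up to 0.70 in the si-Control libraries.

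**Figure D4:**
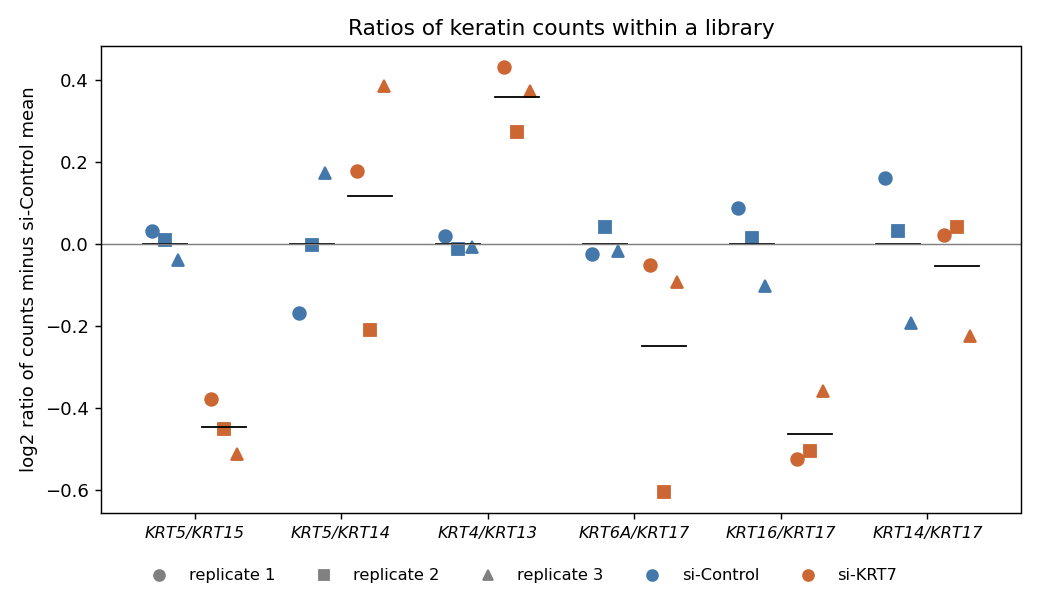
Log2 ratio of the counts of 6 keratin pairs within each library, minus the si-Control mean of that pair (vertical axis), with a symbol per replicate, colors for the groups and a line at each group mean. The ratios of KRT5 to KRT15, KRT4 to KRT13 and KRT16 to KRT17 lie apart from si-Control in all si-KRT7 libraries, and that of KRT6A to KRT17 stands apart mainly in replicate 2.

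Near-identical chains can share reads, and how the authors' counting treated such reads is not stated, so the low values of KRT6B, KRT14 and KRT16 are uncertain. The summed level of KRT6A and KRT6B was 1075 ± 30.8 CPM in si-Control and 672 ± 17.3 CPM in si-KRT7 cells (SD, n = 3), and KRT6A held at least 99.8% of it in every library. The summed level of KRT14, KRT16 and KRT17 was 3631 ± 89.1 and 2746 ± 693 CPM (SD, n = 3), with 99.56% to 99.67% from KRT17. All 9 keratins together took 1.03% to 1.07% of the counts of a si-Control library, and 0.767%, 0.981% and 0.785% in si-KRT7 replicates 1, 2 and 3.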

How the data were processed

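RNA-seq libraries of CFPAC-1 cells (3 si-Control, 3 si-KRT7) were grouped by their GEO titles. The authors deposited whole-number counts of reads per gene and library, without normalization. The submitters' processing notes list STAR 2.7.11b and the mouse build GRCm39, although all identifiers are human. The counting tool and annotation are not given in the sources used here. No other per-sample column was present. None of the identifiers (0) matched the mouse name tables at hand, so the gene lists planned by symbol were not analysed. The keratins are named from the list of identifiers that defines the set.

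Testing used edgeR 4.0.16 under R 4.3.3 (filterByExpr, TMM, glmQLFit, glmQLFTest, Benjamini-Hochberg over all 15736 genes tested), which held 99.9% of counts. The standard error is the log2 fold change divided by the square root of F and is approximate. Exact permutation tests used CPM. Alternatives used DESeq2 1.42.0 and limma 3.58.1, and the scripts were tested on simulated data. All 9 keratins were named whatever their values. The members, lists and tests were chosen with earlier results of these data known. No pair of libraries differed by counting error only (mean chi-square per gene of 3.70 or more). This value cannot tell separate cultures from separate preparations of the same culture.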

Additional observations from a re-analysis of the deposited data

How the results depend on the processing

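The number of keratins called, 1 of 9 with edgeR, was 3 with library size only (2% of all genes called), 3 with the DESeq2 Wald test (7.33%), 2 with limma-voom (1.96%), 6 with sample quality weights (43.6%), 4 without a filter on low counts (4.41%), 3 with cyclic loess (2%) and 7 with cyclic loess without si-KRT7 replicate 2 (42.3%). It stayed at 1 with DESeq2's size factors (2.05%), at least 10 counts in every library (2.34%) and the replicate block (0.483%). With 1 library left out it ran from 0 to 6. The highest value came without si-KRT7 replicate 2 (42.9% of all genes called). It was 0 in each fit without a si-Control library (0.0372% to 0.0616%).

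Over all genes, 325 were called and 46 passed both limits. These numbers were 1153 and 101 with the DESeq2 Wald test, 6858 and 443 with sample quality weights, 1347 and 154 without a filter, 76 and 25 with the replicate block, and 6846 and 347 with cyclic loess without si-KRT7 replicate 2. With 1 library left out they ran from 6 to 6944 and from 6 to 356. The cause was not tested.

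KRT6A was called in 13 of 16 alternatives, with log2 fold changes from -0.70 to -0.61 and an adjusted p of at most 0.0782. KRT16 was called in 8, KRT5 in 7, KRT17 in 4, KRT13 and KRT14 in 3 each and KRT4 in 1, each with 1 direction throughout. Uncalled values turned sign for KRT6B without si-Control replicate 2 (-0.0018, within a range from there to 0.63 over the fits that left out a library), and for KRT15 without si-KRT7 replicate 2 (-0.0081, within a range to 0.16) and with cyclic loess without that library (-0.019). The deviations of same-numbered libraries had correlations across genes of 0.052, -0.080 and -0.073, beside -0.10 to 0.13 for differently numbered ones. With 3 libraries in each group these values cannot show whether same-numbered libraries were prepared together, which the labels do not state. The replicate block changed no keratin's call. Depth limits KRT6B most, at 14 to 31 counts per library.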

Other observations

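Likeness across the 6 libraries was measured as Pearson's r of log2 CPM, a description over points that share 2 groups. The gene most like KRT6A was ENSG00000124762 (r = 0.999), which has no name in the table. Among the keratins, KRT5 and KRT16 were most like each other (r = 0.982), as were KRT13 and KRT17 (r = 0.968) and KRT4 and KRT15 (r = 0.899). KRT14 was nearest to KRT17 (r = 0.932) and KRT6A to KRT5 (r = 0.934). For each of the 9 keratins at least 71 other genes were more like it than the nearest keratin was.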
